A study of Homo sapiens with 6 samples.

Results

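The genes described here are the well-expressed long intergenic noncoding RNA (lincRNA) genes of A375 cells, an established human melanoma line, after 6 h with CuB or with the solvent DMSO. They are the rows that the deposited table annotates as lincRNA and that had a mean of at least 5 FPKM over all 6 libraries. FPKM are fragments per kilobase of gene length, scaled for each library as deposited. SNHG genes with a number, GAS5 and ZFAS1 were left out by name. This took 71 genes of the 58735 in the table, which lists 7629 lincRNA genes. CuB is cucurbitacin B, a plant triterpenoid, in the series title. The 2 groups are CuB-treated A375 cells and DMSO-treated A375 cells, with 3 libraries each of polyadenylated RNA. The dose of CuB is uncertain, since the protocol gives 0.2 µM and the library names give 100 nM. The labels do not say whether the 3 libraries of a group came from separate cultures, so a p-value here rests on the spread among these libraries alone, and that spread may be technical. All libraries came from 1 cell line, and in such bulk RNA fewer cells and less RNA per cell cannot be told apart.

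A lincRNA gene is transcribed from its own locus between protein-coding genes and yields a spliced or unspliced RNA without a long open reading frame. Some of these RNAs work as molecules: NEAT1 is the scaffold around which paraspeckles form, MALAT1 collects in nuclear speckles, and NORAD is a cytoplasmic RNA that binds Pumilio proteins. Others, the host genes, carry a microRNA in their transcript, and for many no role is established. Transcripts of this kind are often restricted to few cell types and often change quickly when a cell is stimulated.

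The sequences that belong to the largest rise and to the microRNA host genes are shown first. The promoter of LINC01629, from 250 bases before to 50 bases after its start, lies on the plus strand at chr14:76959388-76959687 (GRCh38.p14, RefSeq). Capitals mark the letters TGANTCA, the motif of the AP-1 factors, which begins 230 and 92 bases before the start.
LINC01629 promoter: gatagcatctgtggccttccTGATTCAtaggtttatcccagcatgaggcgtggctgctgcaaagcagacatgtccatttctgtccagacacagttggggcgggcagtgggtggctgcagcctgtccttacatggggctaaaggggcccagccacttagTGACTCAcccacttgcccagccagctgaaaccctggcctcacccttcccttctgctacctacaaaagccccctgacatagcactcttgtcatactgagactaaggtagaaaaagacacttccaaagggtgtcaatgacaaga

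MIR3142HG carries miR-146a and miR-3142. Its RefSeq start lies 29657 bases downstream of the start in the table, so the window at chr5:160468001-160468300 on the plus strand is that of the RefSeq start only. Capitals mark the motif of NF-kB (GGGA, any base, TTTCC), which begins 120 bases before that start.
MIR3142HG promoter at the RefSeq start: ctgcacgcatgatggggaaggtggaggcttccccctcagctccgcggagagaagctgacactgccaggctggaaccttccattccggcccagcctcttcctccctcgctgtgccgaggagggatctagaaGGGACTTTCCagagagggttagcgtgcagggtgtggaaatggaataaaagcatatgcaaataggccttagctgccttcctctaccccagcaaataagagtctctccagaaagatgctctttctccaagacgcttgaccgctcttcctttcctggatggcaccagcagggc

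Both strands were searched in 35116 RefSeq promoters of 300 bases. TGANTCA occurred in 7.709% of them, and at least 2 times in 0.515%. The NF-kB motif occurred in 0.5582%. Of the 71 genes, 20 had a RefSeq promoter of the same name, and in 18 of these the start was within 1000 bases of the start in the table. Of those 18, 3 rose and 1 fell. Among them LINC01629 alone held the AP-1 motif and none held the NF-kB motif. The motifs labelled CRE, ATF4-C/EBP, E-box and STAT were searched as well and are not marked above. LINC00623, which rose, held ATF4-C/EBP (3.617% of all promoters). NORAD and LINC02241, which did not pass, held the E-box (7.256%). A match is a description of letters, not a binding site.

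Of the 6 mature microRNAs that RefSeq gives for these 2 host genes, 4 follow, with the seed (bases 2 to 8) in capitals. miR-221-3p and miR-222-3p, both of MIR222HG, have the same seed.
hsa-miR-146a-5p: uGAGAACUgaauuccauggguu
hsa-miR-3142: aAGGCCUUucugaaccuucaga
hsa-miR-221-3p: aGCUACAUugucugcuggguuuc
hsa-miR-222-3p: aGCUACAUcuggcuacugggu

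Converted back, the FPKM values were whole fragments to within 0.01, and the library totals were 15502971 to 16137093 fragments with CuB and 14845976 to 15797757 with DMSO. Replicates of a group differed by more than counting noise, by 2.80 to 24.3 times the counting variance in a chi-square test, and the highest values belonged to pairs with DMSO replicate 2. The cells had the melanoma-lineage factor SOX10 at a mean of 218 FPKM with CuB and 198 FPKM with DMSO, while the pigment genes PMEL, MLANA, TYR, DCT and TYRP1 were all below 1 FPKM on average. Other markers of melanoma cell state moved with treatment: S100B averaged 6.64 FPKM with CuB and 26.4 FPKM with DMSO, and AXL 81.7 FPKM with CuB and 29.3 FPKM with DMSO. Their part in the results was not tested. The 14 markers of blood, endothelial, epithelial and fibroblast cells all averaged below 0.4 FPKM in each group, with HBB at 0.

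The 71 genes differed widely in level. Their mean over all libraries ran from 5.09 FPKM to 105 FPKM, with a median of 8.12 FPKM, and 46 lay below 10 FPKM. The threshold fell between AC008764.2 at 5.09 FPKM, AC008440.3 at 5.16 FPKM and AC114912.1 at 5.19 FPKM on the inside, and AL161431.1 at 4.98 FPKM, AC009229.3 at 4.86 FPKM and AC092279.1 at 4.82 FPKM on the outside. A mean of at least 5 FPKM was reached in both groups by 58 genes, with CuB alone by 8 and with DMSO alone by 5. A gene of the last 2 kinds entered through the group where it was high. LINC01629, AC008440.3, LINC01060, AC114912.1, AC005261.1, AC079949.2, AP001628.1 and MIR222HG entered in this way through CuB. AC017067.1, AL391244.3, AC008764.2, AP003900.1 and AL365181.2 entered through DMSO. For all of these, the differences from the other group were partly fixed by the choice of genes. Together the 71 genes took 0.380%, 0.376% and 0.359% of all FPKM in the CuB libraries, against 0.380%, 0.342% and 0.388% in the DMSO libraries. The ranges of the groups overlapped.

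With CuB, 19 of the 71 genes rose, 14 fell and 38 did not pass the test, which was limma's moderated test on log2(FPKM + 1) with Benjamini-Hochberg adjustment over 13273 genes at a threshold of 0.05. All 71 were tested. Among all tested genes 22.9% rose and 15.6% fell, so that 38.6% passed in either direction. Of tested genes of at least 5 FPKM, 28.8% rose and 12.5% fell, 41.3% together. The 13 lincRNA genes that reached 5 FPKM in 1 group alone account for 6 of the rises and 5 of the falls. Since such a gene was taken up through its higher group, the counts over all 71 are read as a description. Of the 58 lincRNA genes with at least 5 FPKM in both groups 13 rose and 9 fell, 37.9% together, against 38.2% of the 7038 tested genes that met the same condition. At least 2-fold on the log2(FPKM + 1) scale, 6 lincRNA genes rose and 3 fell, against 4.87% and 2.37% of all tested genes. The median log2 fold change was 0.02 over the 71 genes, 0.05 over all tested genes and 0.13 over tested genes of at least 5 FPKM. The 371 lincRNA genes from 1 to below 5 FPKM, left out by the threshold, had a median log2 fold change of -0.25, and 10.2% of them rose while 31.3% fell. The 3 CuB values lay wholly to one side of the 3 DMSO values in 41 of the 71 genes (57.7%), and in 51.5% of all tested genes.

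**Figure D1:**
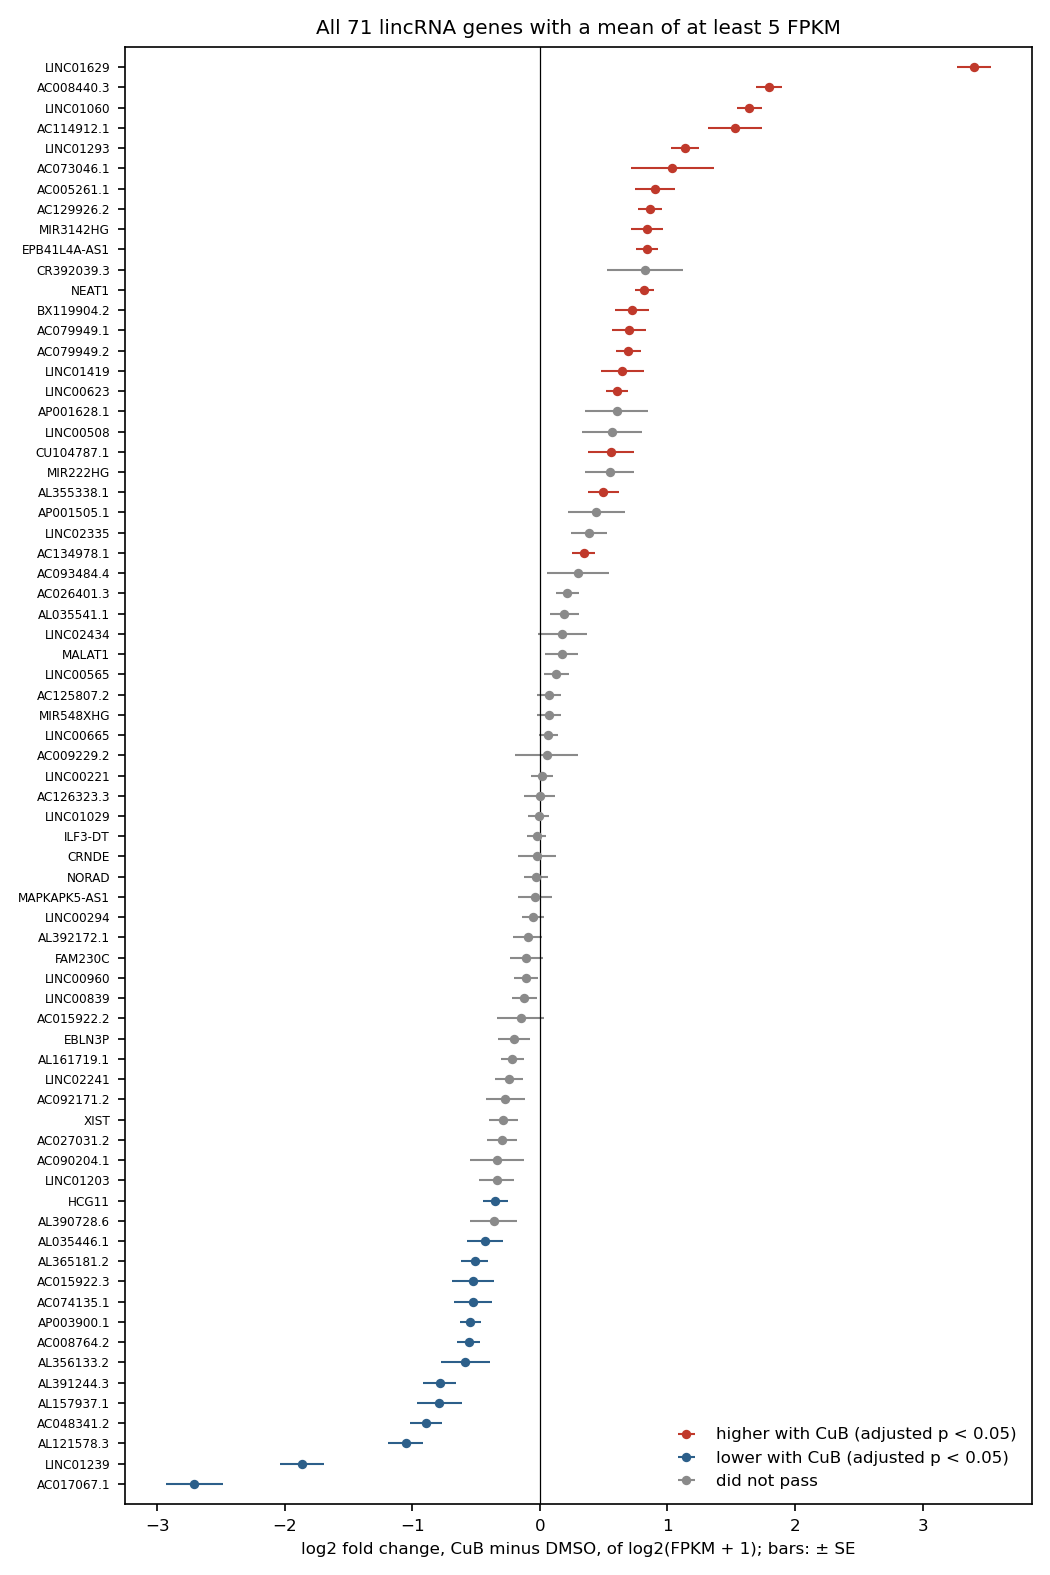
Log2 fold change of log2(FPKM + 1), CuB minus DMSO, for each of the 71 lincRNA genes, ordered by size; bars are the standard error from limma with 3 libraries a group. LINC01629 stands highest at 3.40 and AC017067.1 lowest at -2.71, and the 38 genes in grey, which did not pass, lie between -0.36 and 0.83.

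The split between rises and falls depends on the scale. The library size implied by the deposited FPKM values was 0.914 to 0.927 of the fragment total in the CuB libraries. In the DMSO libraries it was 1.03 to 1.04 of that total. The deposited scale therefore sets CuB higher against DMSO than scaling by fragment totals does. The deposited FPKM values put the median of all genes at 0.05, and equal fragment totals moved that median by -0.14. With equal fragment totals 14 lincRNA genes rose and 19 fell, beside 15.2% and 23.6% of all tested genes. After rescaling every library to an equal FPKM sum 16 rose and 18 fell, beside 2323 and 2653 of the 13273 tested genes. With quantile normalization 15 rose and 18 fell, beside 16.9% and 18.9%. In these scalings falls outnumbered rises among all genes as well. After a correction for GC content 19 rose and 22 fell, while among all tested genes 30.8% rose and 27.6% fell. The median of the 71 genes stayed near that of all genes, 0.04 below it with the deposited scale and 0.04 below it with equal fragment totals.

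LINC01629, on chromosome 14 from 76959638 to 76965802 (plus strand), had the largest log2 fold change of the 71 genes. It had 15.79, 17.01 and 14.16 FPKM with CuB, against 0.336, 0.631 and 0.772 FPKM with DMSO. The CuB values were all high and close together, and the DMSO values rested on 3, 6 and 7 fragments. LINC01629 averaged 15.7 ± 1.43 FPKM with CuB and 0.580 ± 0.222 FPKM with DMSO (SD, n = 3 each), 27.0-fold, and the exact 95% interval of the fragment ratio, which covers counting error only, was 16.4 to 47.5. The log2 fold change was 3.40 (SE 0.13, limma adjusted p = 7.64e-06). This is the gene whose promoter letters are shown above with both AP-1 motifs. It shares 116 exon bases with AC007686.4 on the opposite strand, which averaged 0.825 FPKM, and the kit does not mark strand.

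AC008440.3, on chromosome 19 from 53864763 to 53866140, had 8.90, 9.08 and 7.71 FPKM with CuB, against 1.996, 1.541 and 1.731 FPKM with DMSO. The DMSO values of AC008440.3 rested on 17, 14 and 15 fragments. All its CuB values were above all DMSO values, 4.88-fold on average, with a log2 fold change of 1.80 (SE 0.11, limma adjusted p = 4.33e-05). Its start lies 1460 bases from that of MYADM, a membrane protein gene on the same strand, which is taken up with the other neighbours.

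LINC01060, on chromosome 4 from 188400736 to 188681051, had 16.6, 15.2 and 14.3 FPKM with CuB, against 4.456, 3.758 and 4.501 FPKM with DMSO. The groups were well apart, with a log2 fold change of 1.64 (SE 0.10, limma adjusted p = 4.63e-05). LINC02434, 239597 bases away on the same strand, had a log2 fold change of 0.18 and did not pass. AC114912.1, also on chromosome 4, had 10.1, 8.49 and 6.00 FPKM with CuB, against 2.51, 1.45 and 2.58 FPKM with DMSO, a log2 fold change of 1.53 (SE 0.21, limma adjusted p = 0.00184). Its CuB values spread more widely than those of LINC01060 but did not reach the DMSO values. LINC01293, on chromosome 2, had 11.7, 13.4 and 12.0 FPKM with CuB, against 5.82, 4.44 and 5.06 FPKM with DMSO, a log2 fold change of 1.13.

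Smaller rises followed, all with separate groups. AC005261.1 had a log2 fold change of 0.90, AC129926.2 of 0.86 and EPB41L4A-AS1 of 0.84. EPB41L4A-AS1, which hosts a small nucleolar RNA, averaged 14.9 ± 0.498 FPKM with CuB and 7.91 ± 0.610 FPKM with DMSO (SD, n = 3 each). It shares 1659 exon bases with EPB41L4A, which averaged 0.148 FPKM. AC073046.1 had 9.95, 13.6 and 17.5 FPKM with CuB, against 7.02, 8.93 and 3.29 FPKM with DMSO. Its groups stand close, and its rise (log2 fold change 1.04, limma adjusted p = 0.0429) was lost without CuB replicate 2 (adjusted p = 0.11), CuB replicate 3 (0.118), DMSO replicate 1 (0.0756) or DMSO replicate 3 (0.0674). The rise of AC073046.1 was also lost with equal FPKM sums, quantile normalization, equal fragment totals and no filter on low values, and passed in 12 of 20 other settings.

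**Figure D2:**
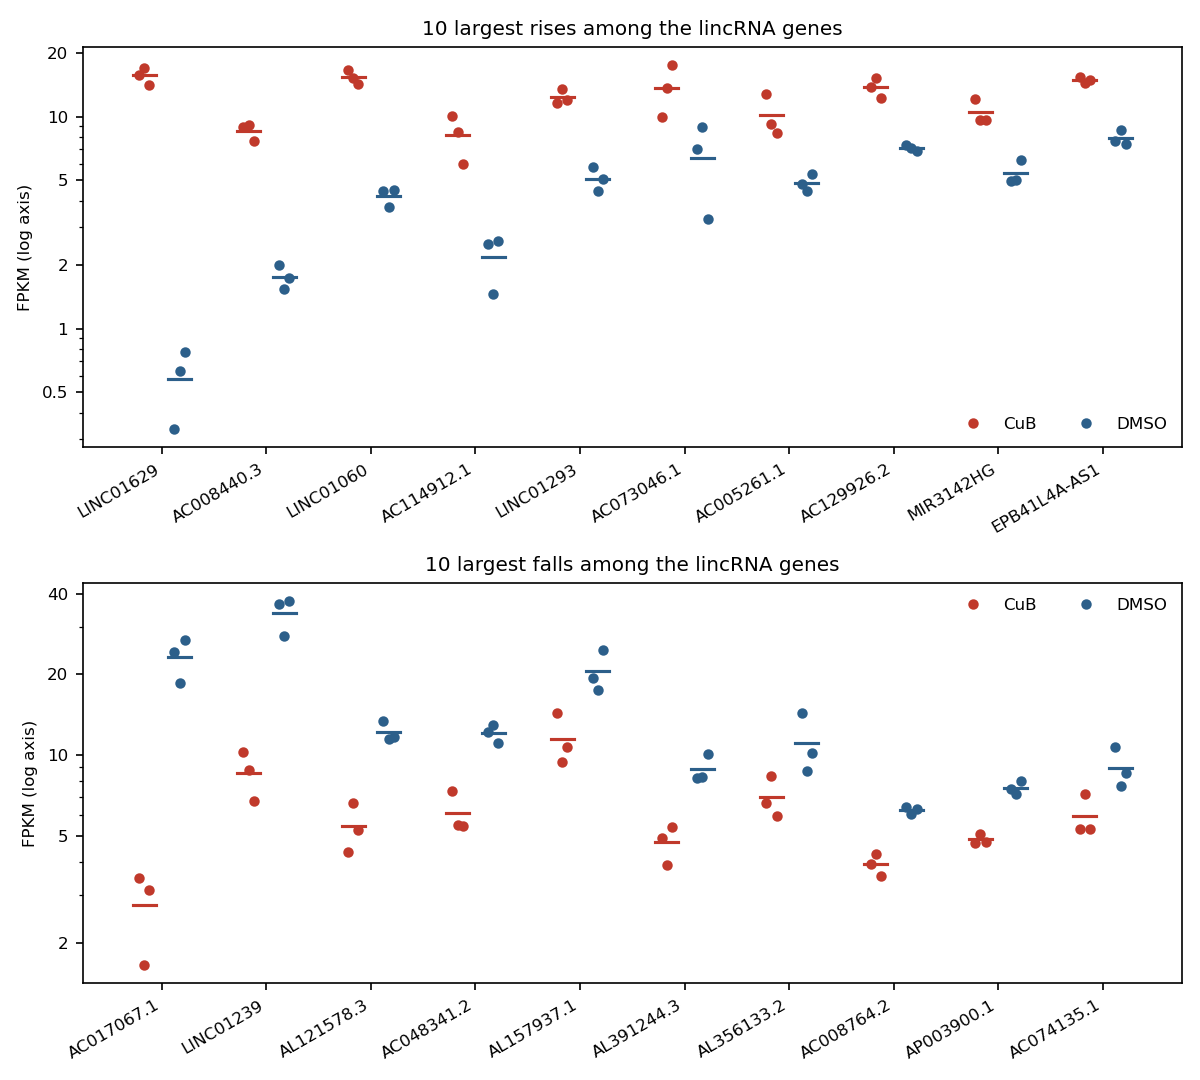
FPKM on a log axis in each library for the 10 largest rises (upper panel) and the 10 largest falls (lower panel) among the lincRNA genes, with CuB in red left of DMSO in blue; dots are libraries and lines are group means of 3. The groups lie far apart in LINC01629, AC017067.1 and LINC01239 and close together in AC073046.1, AL356133.2 and AC074135.1.

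The largest falls lay together on chromosome 9. AC017067.1, from 22767175 to 22768316, had 3.47, 1.65 and 3.14 FPKM with CuB, against 24.2, 18.6 and 26.9 FPKM with DMSO. All CuB values were low, resting on 22, 11 and 21 fragments. The log2 fold change was -2.71 (SE 0.22, limma adjusted p = 1.90e-04), and the fragment ratio of CuB to DMSO was 0.119 with an exact 95% interval of 0.0878 to 0.157.

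LINC01239, from 22646200 to 22824213, contains AC017067.1 on the same strand and shares no exon with it. It had 10.2, 8.77 and 6.77 FPKM with CuB, against 36.4, 27.7 and 37.5 FPKM with DMSO, a log2 fold change of -1.87 (SE 0.17, limma adjusted p = 2.98e-04). Fragments of the longer RNA that lie in the exons of the shorter one cannot be told apart from it. AL157937.1, 431528 bases from LINC01239 on the other strand, had 14.3, 9.41 and 10.7 FPKM with CuB, against 19.4, 17.5 and 24.6 FPKM with DMSO, a log2 fold change of -0.79 (SE 0.18, limma adjusted p = 0.0125). The drop of AL157937.1 was smaller, and its groups did not overlap.

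Elsewhere, AL121578.3 on the X chromosome had 4.37, 6.63 and 5.28 FPKM with CuB, against 13.4, 11.5 and 11.7 FPKM with DMSO, a log2 fold change of -1.05 (SE 0.14, limma adjusted p = 0.00149). AC048341.2 averaged 6.08 ± 1.08 FPKM with CuB and 12.1 ± 0.930 FPKM with DMSO (SD, n = 3 each), a log2 fold change of -0.89. AL391244.3 had a log2 fold change of -0.79, but at least 50% of its transcript occurs at 95% identity or more in 4 other genes, so its value is uncertain. AP003900.1 had a log2 fold change of -0.55.

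Some of the calls did not hold in other settings. AC008764.2 had 3.94, 4.29 and 3.56 FPKM with CuB, against 6.41, 6.01 and 6.30 FPKM with DMSO, from 65 fragments with CuB and 111 with DMSO. Its fall (log2 fold change -0.56, limma adjusted p = 0.00333) kept its call without any single library and did not pass with voom on the recovered fragments (adjusted p = 0.0654). AL356133.2, also on chromosome 9 (log2 fold change -0.58, limma adjusted p = 0.0467), lost its call without any library except DMSO replicate 2, with adjusted p up to 0.13. Its call held in 11 of 20 other settings. AC074135.1 (log2 fold change -0.52, limma adjusted p = 0.0321) lost its call without CuB replicate 1 (0.0879), CuB replicate 3 (0.095), DMSO replicate 1 (0.10) or DMSO replicate 3 (0.0668), and kept it in 14 of 20 other settings. AC074135.1 shares 178 exon bases with ZNF730 on the same strand, which averaged 1.45 FPKM.

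Among the RNAs with a known role in nuclear bodies, NEAT1 rose and its neighbour MALAT1 did not pass. NEAT1, on chromosome 11 from 65422774 to 65445540, had 13.4, 12.9 and 13.4 FPKM with CuB, against 6.92, 6.91 and 7.39 FPKM with DMSO. Every CuB value was almost the same and well above every DMSO value, with a log2 fold change of 0.82 (SE 0.07, limma adjusted p = 2.98e-04). MALAT1, 52148 bases downstream, had 35.7, 33.6 and 30.9 FPKM with CuB, against 30.5, 24.7 and 34.1 FPKM with DMSO, a log2 fold change of 0.17 (SE 0.13, limma adjusted p = 0.326). Its groups overlapped, and the difference between the 2 genes was not tested. Much of NEAT1 and MALAT1 RNA lacks a poly(A) tail, so the polyadenylated fraction is what these levels describe.

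The proteins of these bodies were counted in the same fit, in which 28.8% of tested genes of at least 5 FPKM rose and 12.5% fell, with a median log2 fold change of 0.13. Of 14 paraspeckle proteins, 6 rose and none fell, with a median log2 fold change of 0.20. With quantile normalization none rose and 3 fell, and with equal fragment totals 2 rose and 2 fell, beside 15.2% and 23.6% of all tested genes. SFPQ, an RNA-binding protein essential to paraspeckles, averaged 125 ± 2.41 FPKM with CuB and 96.8 ± 0.823 FPKM with DMSO (SD, n = 3 each), a log2 fold change of 0.36 that did not pass with quantile normalization. RBM14 had a log2 fold change of 0.48 and likewise did not pass with quantile normalization. HNRNPK had one of 0.27 and passed in 13 of 20 other settings. Of 13 nuclear speckle proteins, 5 rose and 1 fell, with a median log2 fold change of 0.23, and with equal fragment totals 1 rose and 2 fell. The splicing factor SRSF7 rose, at 75.9 ± 1.75 FPKM with CuB and 48.4 ± 1.44 FPKM with DMSO (SD, n = 3 each), in all 20 other settings too. SRSF3 had a log2 fold change of 0.31 and passed in 11 of 20 other settings, and SRSF5, the 1 that fell, had one of -0.31 and passed in 15.

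Of 9 nuclear RNA decay factors, which trim or target noncoding RNA, 5 rose and none fell, with a median log2 fold change of 0.28, and 3 rose with equal fragment totals. These counts are read beside the same 28.8%, and 15.2% with equal fragment totals. ZCCHC8, a subunit of the NEXT complex that hands RNA to the exosome, averaged 12.5 ± 1.52 FPKM with CuB and 4.48 ± 0.486 FPKM with DMSO (SD, n = 3 each), a log2 fold change of 1.30 (limma adjusted p = 2.78e-04). ZCCHC7 of the TRAMP complex and the RNA methyltransferase METTL16 had log2 fold changes of 0.63 and 0.54, and all 3 rose in each of the 20 other settings.

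NORAD had the highest mean of the 71 genes. It had 108, 104 and 99.6 FPKM with CuB, against 111, 93.8 and 115 FPKM with DMSO, a log2 fold change of -0.03 (SE 0.09, limma adjusted p = 0.801). The groups overlapped, and the direction turned to 0.02 without DMSO replicate 3. OVCH1-AS1 holds a similar sequence, so fragments may be split between them. The Pumilio motif TGTANATA occurred 15 times in the longest NORAD transcript on its own strand. HCG11, chosen after its values were seen, held it 16 times, NEAT1 held 6, and 12 of the 71 genes held any. HCG11 averaged 5.28 ± 0.299 FPKM with CuB and 7.02 ± 0.755 FPKM with DMSO (SD, n = 3 each), and its fall (log2 fold change -0.35, limma adjusted p = 0.0291) was lost without CuB replicate 2 (adjusted p = 0.0972), CuB replicate 3 (0.094), DMSO replicate 1 (0.109) or DMSO replicate 3 (0.0699). The fall of HCG11 passed in 14 of 20 other settings. Of the listed NORAD partner proteins, KHDRBS1 had a log2 fold change of 0.12 and RBMX of -0.20, and neither passed.

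The other abundant genes changed little or moderately. LINC01029, on chromosome 18, had 87.4, 87.1 and 81.2 FPKM with CuB, against 89.9, 77.8 and 90.3 FPKM with DMSO, with a log2 fold change of -0.01 (SE 0.08) that did not pass. AC134978.1, which overlaps it on the same strand without a shared exon, averaged 60.6 ± 4.18 FPKM with CuB and 47.6 ± 4.02 FPKM with DMSO (SD, n = 3 each). Its log2 fold change of 0.34 (limma adjusted p = 0.0257) passed in only 10 of 20 other settings. Among others, it did not pass with equal fragment totals (adjusted p = 0.173), quantile normalization (0.422) or the GC correction (0.0504), nor without CuB replicate 2 (0.109), CuB replicate 3 (0.0744) or DMSO replicate 1 (0.0698). LINC01419, on chromosome 8, had 81.5, 58.8 and 54.9 FPKM with CuB, against 39.2, 35.8 and 47.6 FPKM with DMSO, a log2 fold change of 0.65 (SE 0.17, limma adjusted p = 0.0231) that was lost without DMSO replicate 1 (0.0739), with quantile normalization (0.107), with equal fragment totals (0.0567) and without a filter on low values (0.0665).

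**Figure D3:**
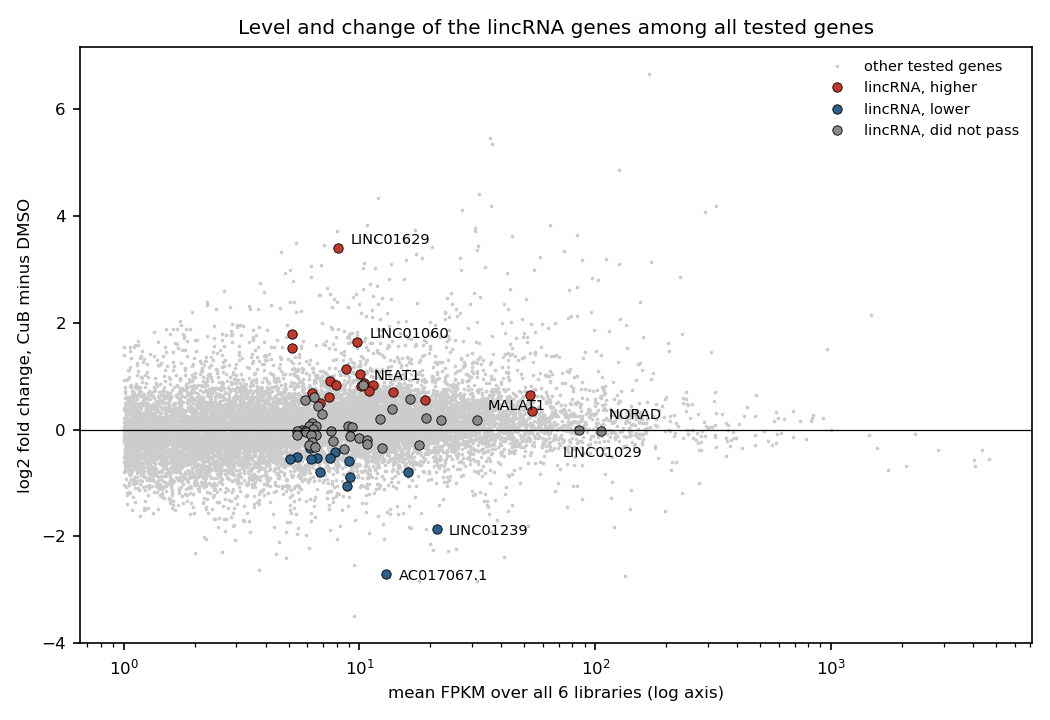
Mean FPKM over all 6 libraries (log axis) against the log2 fold change, CuB minus DMSO, for the 71 lincRNA genes (large dots, coloured by the test) and the other tested genes (small grey dots). NORAD and LINC01029, at the highest lincRNA levels, lie near 0, while LINC01629, LINC01239 and AC017067.1 lie at the edges of the cloud.

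Of the microRNA host genes, MIR3142HG rose. It had 12.1, 9.67 and 9.65 FPKM with CuB, against 4.96, 5.01 and 6.22 FPKM with DMSO, a log2 fold change of 0.84 (SE 0.12, limma adjusted p = 0.00231). All CuB values were higher. The miR-146a hairpin, whose mature sequence is shown above, is listed at 0 fragments in every library, and such libraries do not measure mature microRNAs.

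MIR222HG, the host of miR-221 and miR-222 with their common seed, had 8.87, 6.32 and 6.24 FPKM with CuB, against 5.45, 3.27 and 5.08 FPKM with DMSO. The groups did not overlap, but the log2 fold change of 0.55 (SE 0.19, limma adjusted p = 0.0612) did not pass. It passed with voom on the recovered fragments (adjusted p = 0.0402), the replicate block (0.0263) and the GC correction (0.00345). The row of the miR-221 hairpin, which lies within MIR222HG, had 35, 23 and 18 fragments with CuB, against 13, 13 and 8 with DMSO, a log2 fold change of 1.13 (limma adjusted p = 0.0162). MIR548XHG, the third host gene, averaged 6.75 ± 0.634 FPKM with CuB and 6.37 ± 0.323 FPKM with DMSO (SD, n = 3 each) and did not pass.

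Position was not part of the rule. The nearest protein-coding start lay within 10 kb in 10 of the 71 genes, and in 9 of these the neighbour was tested. The log2 fold changes had the same sign in 3 of the 9 pairs. Both genes passed in 3 pairs, in 2 of them in the same direction.

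MYADM, in tandem with AC008440.3, averaged 56.5 ± 2.66 FPKM with CuB and 16.3 ± 3.62 FPKM with DMSO (SD, n = 3 each), a log2 fold change of 1.75 (SE 0.15, limma adjusted p = 2.01e-04) beside 1.80 for the lincRNA gene. AC008440.3 met the threshold through CuB alone, and its DMSO values rested on 17, 14 and 15 fragments. Whether fragments counted for AC008440.3 came from MYADM transcripts was not tested. TET3, a 5-methylcytosine dioxygenase gene 1272 bases from the start of AC073046.1, had a log2 fold change of 0.67 (SE 0.09, limma adjusted p = 0.00181) beside 1.04. BCAN, the brevican gene, starts 386 bases from AL365181.2 on the other strand and went the other way. It had a log2 fold change of 0.56 (SE 0.11, limma adjusted p = 0.00829) beside -0.51 (SE 0.11, limma adjusted p = 0.00925) for AL365181.2, which was singled out after its values were seen. MRPL20, near AL391244.3, and ZNF730, 9 bases from the start of AC074135.1, did not pass. ZNF730 shares 178 exon bases with AC074135.1 on the same strand, and fragments there cannot be told apart.

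**Figure D4:**
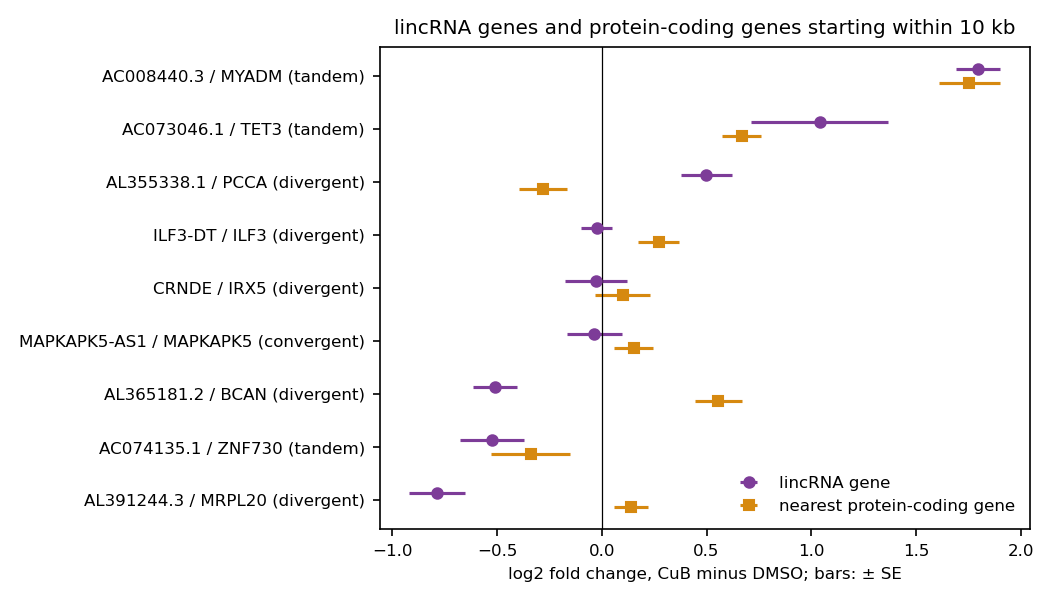
Log2 fold change, CuB minus DMSO, of 9 lincRNA genes (circles) and of the protein-coding gene with the nearest start, within 10 kb (squares); bars are the standard error from limma. AC008440.3 and MYADM lie side by side at 1.80 and 1.75, while AL365181.2 and BCAN lie on either side of 0.

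Neighbouring lincRNA genes were also compared. AC079949.1 and AC079949.2, 617 bases apart on opposite strands of chromosome 12, both rose, with log2 fold changes of 0.70 and 0.69. AC079949.2 met the threshold through CuB alone, with means of 7.99 FPKM with CuB and 4.56 FPKM with DMSO. AC015922.3 fell at -0.52 (limma adjusted p = 0.0427) while AC015922.2, 811 bases away, did not pass at -0.15. The call of AC015922.3 held in 12 of 20 other settings. It was lost in 5 of the fits with one library left out, with adjusted p up to 0.12. The difference between the 2 genes was not tested. These pairs were picked by distance and not by value, and fragments of a pair on opposite strands cannot be assigned by strand where they overlap.

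The genes were also described by their structure. The median GC content was 45.5% in the 19 that rose, 45.0% in the 14 that fell and 47.3% in the 38 that did not pass. Median gene length was 1157 bases in those that rose and 700 bases in those that fell. Of 15 genes with a single exon, 2 rose and 5 fell. Exons were shared with another gene in 15 of the 71, of which 5 rose and 2 fell. These small counts stand beside 26.8% that rose and 19.7% that fell over the 71 genes. Over all tested genes the shares were 22.9% and 15.6%. These features were not tested.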

How the data were processed

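Polyadenylated RNA of 6 A375 libraries was measured, 3 per group, with an unstranded TruSeq kit, per the labels' protocols. The authors deposited FPKM per gene, with GRCh38 named in the submitters' processing notes. Which aligner, counter and scaling were used is not stated in the sources used here. Columns were assigned by the library names, and replicate numbers come from the labels. Coordinates and lengths of all 58735 genes were those of GENCODE 29.

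FPKM values were converted to whole fragments through their steps (100% whole within 0.01), which gave the depth. Count tests on raw counts were not run, since the table holds no counts. The 13273 genes that averaged 1 FPKM or more were tested as log2(FPKM + 1), which understates changes of low genes, with limma 3.58.1 in R 4.3.3 (intensity trend, 4 residual degrees of freedom, no block), with Benjamini-Hochberg adjustment over all of them. Similar transcripts were found with BLAST 2.17.0 at 95% identity or more over at least 50% of the transcript.

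The limma step was checked on simulated data. There, genes with few fragments were called too often, and the cause was not tested. A fit on genes with a mean of at least 50 fragments a library was added after seeing the data, as was a choice of members without shared exons or similar transcripts. Of the 71 genes, 11 had fewer fragments, and 3 of these were called, namely AC008440.3, AC114912.1 and AC008764.2.

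The members, gene lists and tests were chosen with earlier results of these data known. Named genes were the 10 largest rises and 10 largest falls among called genes with separate groups, the 5 highest means, the 3 highest that did not pass, the 3 on either side of the threshold, genes with listed roles, and the top 3 of each protein list (or, with under 2 passing, the 2 most abundant). Any other named gene was chosen after its values were seen. Values of a few listed genes are not reported here.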

Additional observations from a re-analysis of the deposited data

How the results depend on the processing

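Each result was recomputed in 20 other settings. Of the 33 lincRNA genes called, 14 rises and 8 falls were called the same way in all of them, and 23 kept their call when each library was left out in turn. The 14 falls became 9 without a filter on low values, 9 with the replicate block, 22 with the GC correction and 22 with that correction and the replicate block, and 9 to 18 when one library was left out. Of all genes in the same fits, 6.11% fell without a filter and 13.5% with the replicate block. With the GC correction 27.6% fell, with that correction and the block 26.2%, and with one library left out 9.77% to 17.4%. Falls numbered 9 without CuB replicate 3, DMSO replicate 1 or DMSO replicate 3, beside 11.7%, 10.2% and 11.9% of all tested genes. With the replicate block 21 rose, beside 19.9% of all tested genes. Deviations from the group mean correlated at 0.269, 0.119 and -0.357 between same-numbered libraries. Between libraries with different numbers the correlations ran from -0.494 to 0.469. With 3 libraries a group such deviations depend on each other, so these values cannot decide whether the numbers pair the samples.

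Other choices of genes gave 9 rises and 3 falls among 25 genes at 10 FPKM or more. Of 223 genes at 2 FPKM or more, 42 rose and 66 fell. Of 33 genes that no other gene overlaps, 11 rose and 6 fell. Of 58 with 5 FPKM in both groups, 13 rose and 9 fell. Chosen after seeing the data, the 51 without shared exons or similar transcripts gave 14 rises and 11 falls. Among all tested genes 22.9% rose and 15.6% fell. On genes with at least 50 fragments a library, also chosen after seeing the data, 18 of 60 rose and 13 fell, 17 and 13 of them called before, beside 26.7% and 17.4% of all 11550 such genes.

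Over all genes, the 3046 rises became 2021 with equal fragment totals and 1965 to 3443 with one library left out. The 2072 falls became 985 at 5 FPKM or more, 3128 with equal fragment totals, 3663 with the GC correction (with 4080 rises), 3475 with the GC correction and replicate block (with 3892 rises), and 1297 to 2312 with one library left out. The lowest counts were without CuB replicate 2. The 18 called proteins of the 4 partner lists became 10 without a filter, 11 rescaled to the same sum, 10 with quantile normalization, 7 with the replicate block, 27 with the GC correction with or without that block, and 7 to 21 with one library left out. Pairs that changed together numbered 4 within 50 kb. The cause of these moves was not tested.

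Of 560 values of the 28 named lincRNA genes, 510 kept direction and side of the threshold, 38 lost the call, 4 gained it and 8 turned direction, all in genes that had not passed. Those were NORAD (-0.123 to 0.022) and LINC01029 (-0.0801 to 0.026) with one library left out, MALAT1 with quantile normalization (-0.0436), and MIR548XHG rescaled to the same sum (-0.0203), with quantile normalization (-0.0319) and with equal fragment totals (-0.0742). Depth limits the genes with few fragments most: 11 of the 71 averaged under 50 fragments a library.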
